A study of Homo sapiens with 4 samples.

Results

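The genes of the integrin subunits and laminin chains were followed in MHCC97H cells, an established human hepatocellular carcinoma (HCC) line, after knockdown of UBXN1, a UBX-domain protein that binds ubiquitin. The family was chosen with earlier results of these data known. Its genes were taken by symbol: protein-coding genes named LAMA, LAMB or LAMC with a number, and every integrin α (ITGA) and β (ITGB) subunit gene. This gave 38 genes of the 61541 listed, made up of 18 integrin α subunits, 8 integrin β subunits and 12 laminin chains. The mRNA of 4 libraries had been sequenced, 2 from the control (shCon) and 2 from the knockdown (shUBXN1), all of the same line. The study's methods describe delivery of short hairpin RNAs with lentiviral pLKO.1 plasmids and name a hairpin against RFP as the control, whereas the sample labels say only shCon. Which UBXN1 hairpin the sequenced cells carried, and whether clones were picked, is not given in the sources used here. Nothing states that the 2 libraries of a group came from separate cultures, so the p-values measure the spread between these libraries, which may be technical.

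Laminins are secreted trimers of an α, a β and a γ chain that form the sheet on which epithelial cells rest, the basement membrane. Integrins are the paired α and β receptors by which cells hold on to laminin, collagen, fibronectin and other ligands, and to one another; the α subunit, together with its β partner, sets which ligand is bound. In the healthy liver the hepatocyte plates lack a continuous basement membrane, while bile ducts and larger vessels have one, and the laminin and integrin repertoire of HCC cells is widely studied for its part in invasion.

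The libraries held 23373700 to 27380508 counts, and mitochondrial genes took 5.28% and 5.59% of them in shCon and 7.43% and 8.27% in shUBXN1. UBXN1 had 1788 and 1817 counts in shCon and 416 and 433 in shUBXN1, which is -2.03 on the log2 scale (standard error 0.0963, Benjamini-Hochberg adjusted p = 9.98e-10 in the edgeR quasi-likelihood test). Of 15 hepatocyte and liver cancer markers, 11 had at least 10 counts in every library and GPC3 had 0 in all 4, and their summed level was 5446 to 5494 TPM (a level corrected for gene length and library size) in shCon and 4658 to 5072 TPM in shUBXN1, most of it from the keratins KRT8 and KRT18. ALB, the albumin gene, fell from 16.0 and 14.8 TPM to 3.99 and 4.21 TPM, and HNF4A, a hepatocyte transcription factor, lay at 24.8 and 25.7 TPM and then at 21.5 and 21.4 TPM. KRT18 went the other way, from 1283 and 1320 TPM to 1595 and 1768 TPM. So did SERPINA1, from 10.27 and 10.95 TPM to 14.53 and 14.57 TPM. The other markers tested lay lower in both shUBXN1 libraries, apart from APOA1, which overlapped.

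At an adjusted p under 0.05 in the same edgeR test, 18 of the 33 integrin and laminin genes that could be tested were higher in shUBXN1 and 6 were lower, while among all 16863 genes tested 28% were higher and 28.2% were lower, and 56.2% were called in either direction. Their median log2 fold change was 0.50, against 0.016 over all genes tested. At a fold change of at least 2 with an unadjusted p under 0.05, the thresholds the study used, 10 were higher and 1 was lower, beside 11.8% and 6.09% of all genes. Both shUBXN1 libraries lay above both shCon libraries in 21 of the 33 and below them in 8, which was the case in 39.4% and 38.6% of all genes. The genes higher at 2-fold included LAMB2, LAMA1, LAMA2, LAMA5, ITGB3, ITGB2, ITGB8, ITGB6 and ITGAX, and the gene lower at 2-fold was LAMA3. A correction for GC content gave 3890 genes higher and 5472 lower at the adjusted p among all 16863, against 4727 and 4751 without it. At 2-fold it gave 1690 and 1391, against 1997 and 1027. With it the counts of integrin and laminin genes were 14 higher and 8 lower at the adjusted p, and 9 and 1 at 2-fold. Leaving out shCon replicate 2 gave fewer genes higher at both thresholds, among these genes and over all genes tested. ITGA10 then fell past 2-fold (log2 fold change -1.23). ITGA10 also passed 2-fold without shUBXN1 replicate 1.

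**Figure D1:**
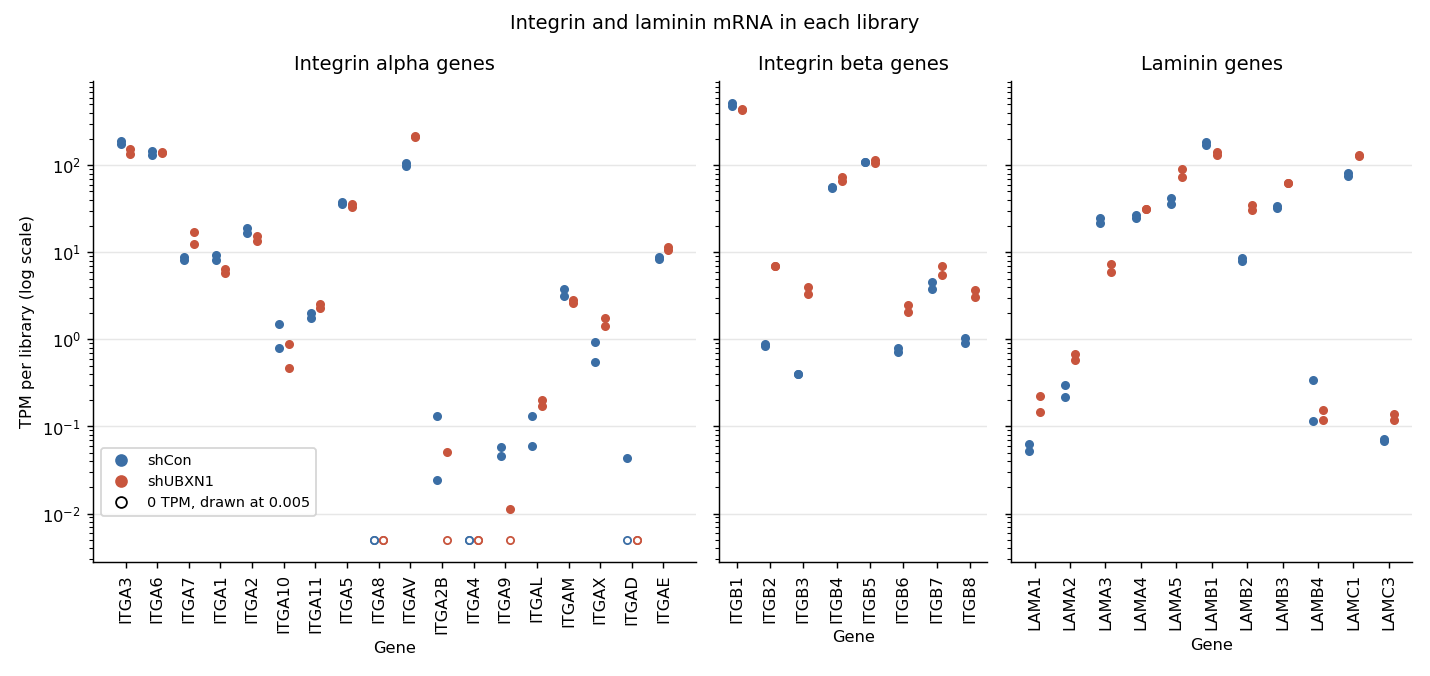
Level of 37 integrin and laminin genes in TPM (log axis) in each of the 2 shCon (blue) and 2 shUBXN1 (red) libraries; open circles mark 0 TPM. LAMA3 lies lower and LAMB2, ITGAV, ITGB2, ITGB3, ITGB6 and ITGB8 lie higher in both shUBXN1 libraries, while ITGB1 has the highest level in each library.

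**Figure D2:**
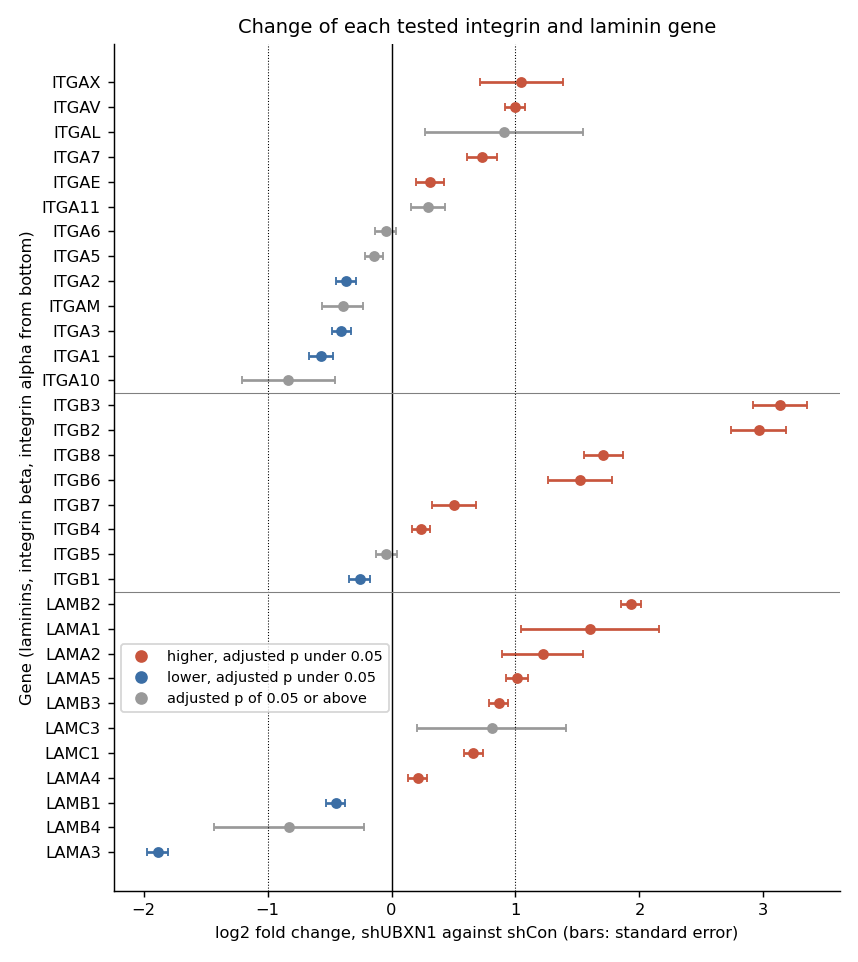
Log2 fold change of shUBXN1 against shCon for 32 of the tested genes, with its standard error; dotted lines mark a 2-fold change. The values run from -1.89 for LAMA3 to 3.14 for ITGB3.

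Among the laminins, 8 of the 12 chains rose, 2 fell and 2 did not pass the test, where 28% of all genes were higher and 28.2% lower, with the largest fall in LAMA3 and the largest rise in LAMB2. LAMA3 encodes the α3 chain of the epithelial laminin that anchors hemidesmosomes, in which it is joined by the β3 chain. It stood at 130 and 119 CPM (counts scaled to library size with edgeR's TMM factors) in shCon and at 35.8 and 31.3 CPM in shUBXN1. The shUBXN1 libraries were far below the shCon libraries, by 3.70-fold (log2 fold change -1.89, standard error 0.0876, adjusted p = 8.23e-10, edgeR quasi-likelihood test, Benjamini-Hochberg). The gene of this partner chain went the other way. LAMB3, for the β3 chain, had 71.5 and 70.4 CPM in shCon and 123 and 135 CPM in shUBXN1, which is 0.86 on the log2 scale (standard error 0.0757, adjusted p = 3.20e-07 in the same test). With the correction for GC content it was 0.60. The groups did not overlap for LAMA3 or LAMB3, which was the case in 78% of all genes tested.

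Set against each other per length, the TPM of LAMA3 was 0.734 and 0.680 times that of LAMB3 in shCon and 0.117 and 0.0937 times in shUBXN1. The TPM of LAMA5 was 1.68 and 1.64 times that of LAMA3 in shCon and 12.4 times in both shUBXN1 libraries. Levels of mRNA were measured, not of secreted trimers.

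LAMA5 encodes the α5 chain of the laminins most common in adult basement membranes. It had 234 and 208 CPM in shCon and 477 and 414 CPM in shUBXN1, 2.01-fold higher (log2 fold change 1.01, standard error 0.0892, adjusted p = 3.40e-07, edgeR quasi-likelihood test, Benjamini-Hochberg). The exons of LAMA5 have a GC content of 66.4%, and with the correction for GC content its log2 fold change was 0.51. LAMB2 encodes the β2 chain, known from the kidney filter and the neuromuscular junction, and had the largest rise of the laminins by fold. It went from 23.8 and 23.0 CPM in shCon to 91.4 and 87.7 CPM in shUBXN1, 3.82-fold higher (log2 fold change 1.93, standard error 0.0798, adjusted p = 2.46e-10 in the same test). LAMB1, for the β1 chain that β2 can replace in a trimer, was at 511 and 491 CPM in shCon and at 366 and 367 CPM in shUBXN1. It fell 1.37-fold (log2 fold change -0.45, standard error 0.0752, adjusted p = 1.51e-04 in the same test). LAMC1, for the γ1 chain present in most laminins, rose from 321 and 304 CPM to 472 and 516 CPM (log2 fold change 0.66, standard error 0.0795, adjusted p = 7.24e-06 in the same test).

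The make-up of the α and β chain families shifted accordingly. LAMA5 supplied 44.4% and 43.2% of the summed TPM of the 5 α chains in shCon and 69.6% and 65.8% in shUBXN1, while LAMA3 went from 26.4% in both shCon libraries to 5.62% and 5.32%. LAMB2 went from 3.75% and 3.77% of the β chains to 14.7% and 13.8%, and LAMB1 from 81.2% and 80.9% to 59.1% and 58.1%. LAMB1 kept the highest level of the β chains in every library. The summed TPM of the α chains was 93.9 and 83.3 in shCon and 130 and 111 in shUBXN1. That of the β chains was 227 and 212 and then 237 and 225, with overlapping groups.

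**Figure D3:**
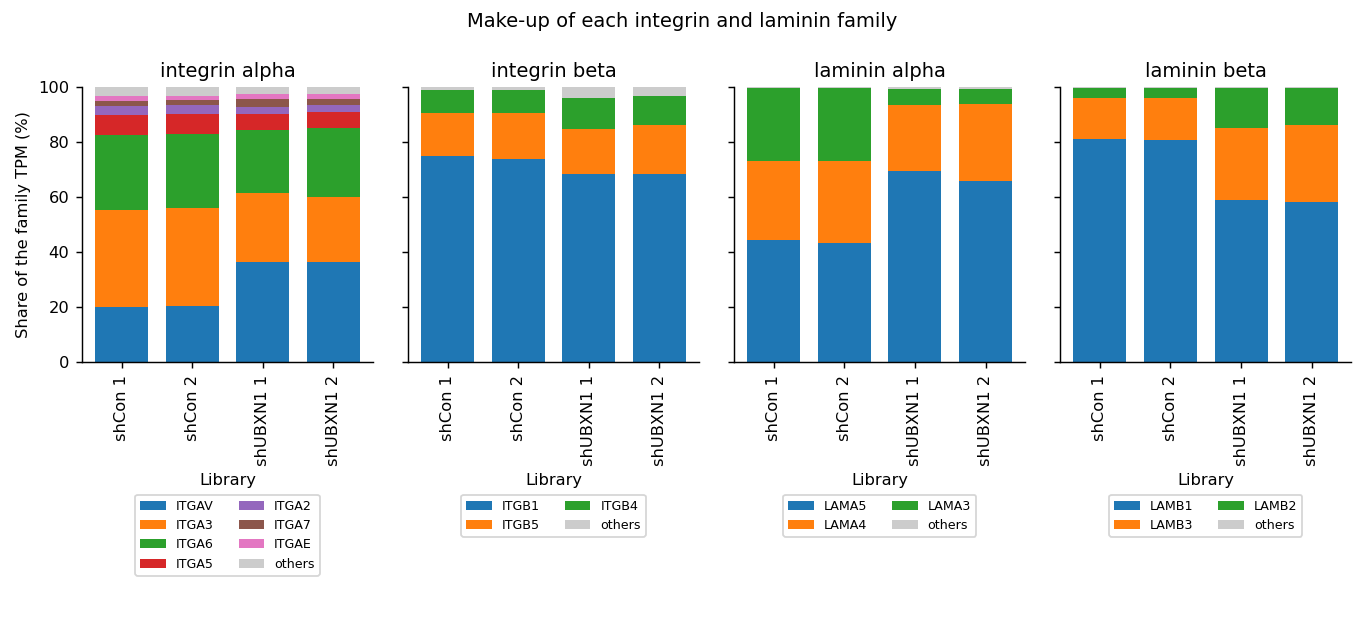
Share of each gene in the summed TPM of its family (%), for integrin α, integrin β, laminin α and laminin β genes in each library; genes under 2% in every library are grouped as others. LAMA5 takes 43.2% to 44.4% of the laminin α TPM in shCon and 65.8% to 69.6% in shUBXN1, and ITGAV 19.8% to 20.2% and then 36.3% to 36.6% of the integrin α TPM.

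The promoters of chains that moved in opposite directions within a trimer are shown, with the 2 other abundant chains that rose. Each sequence is the 250 bases before the RefSeq transcript start (GRCh38.p14), 5′ to 3′ in the direction of the gene, and overlaps no annotated exon of that gene. Capitals mark matches, on either strand, to the GC box GGGCGG, the AP-1 site TGANTCA, the TATA box TATAAA or the CCAAT box, and no base lay in more than 1 match. The LAMA3 window, on the plus strand at chr18:23872770-23873019, precedes a start inside the gene and not its first annotated exon. The others are LAMB3 on the minus strand at chr1:209652426-209652675, LAMA5 on the minus strand at chr20:62367313-62367562 and LAMC1 on the plus strand at chr1:183023170-183023419.
LAMA3: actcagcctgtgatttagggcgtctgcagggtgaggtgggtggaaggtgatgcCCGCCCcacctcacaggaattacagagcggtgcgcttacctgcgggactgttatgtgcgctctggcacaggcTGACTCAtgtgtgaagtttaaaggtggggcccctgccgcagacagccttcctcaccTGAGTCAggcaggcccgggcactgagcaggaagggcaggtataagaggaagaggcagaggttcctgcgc
LAMB3: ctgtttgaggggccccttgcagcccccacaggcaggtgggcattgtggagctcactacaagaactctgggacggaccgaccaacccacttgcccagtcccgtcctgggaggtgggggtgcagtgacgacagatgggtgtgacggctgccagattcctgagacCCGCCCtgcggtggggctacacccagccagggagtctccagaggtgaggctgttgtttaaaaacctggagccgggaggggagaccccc
LAMA5: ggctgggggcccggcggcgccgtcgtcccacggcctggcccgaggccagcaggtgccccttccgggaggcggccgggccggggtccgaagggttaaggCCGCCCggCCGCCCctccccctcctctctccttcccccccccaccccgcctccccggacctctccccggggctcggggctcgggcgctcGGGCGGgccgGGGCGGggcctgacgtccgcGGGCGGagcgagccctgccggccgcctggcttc
LAMC1: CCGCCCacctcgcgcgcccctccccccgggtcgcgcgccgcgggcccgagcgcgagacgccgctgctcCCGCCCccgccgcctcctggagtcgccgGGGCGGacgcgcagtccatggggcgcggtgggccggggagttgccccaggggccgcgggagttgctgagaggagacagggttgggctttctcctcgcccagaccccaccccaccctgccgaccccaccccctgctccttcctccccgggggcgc

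LAMA3 held 2 AP-1 matches, with 118 and 62 bases between them and the start, and 1 GC box, and LAMB3 held 1 GC box. LAMA5 held 5 GC boxes and LAMC1 held 3. Promoters were found for 26 of the 38 genes, of which LAMA3 was the 1 with an AP-1 match, beside 6.596% of 27305 human promoters of the same length. A GC box was present in 13 of the 26 and in 42.31% of all promoters, a CCAAT box in 4 and in 33.04%, and a TATA box in 1, ITGA6, and in 11.13%. The GC content of the windows ran from 30.0% in ITGB6 to 82.8% in LAMA5, with a median of 61.2% over the 26 and 58.0% over all promoters. Such letter matches describe the window and do not show that a factor binds there.

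Of the laminin chains with few counts, LAMA1, LAMA2 and LAMC3 lay higher in both shUBXN1 libraries, and LAMB4 overlapped between the groups. LAMA2, whose α2 chain is the main laminin α chain of muscle, had 39 and 26 counts in shCon and 78 and 67 in shUBXN1 (log2 fold change 1.22, standard error 0.324, adjusted p = 5.27e-03, edgeR quasi-likelihood test, Benjamini-Hochberg). LAMA1, an α chain of the early embryo, had 8 and 6 counts and then 16 and 25 (log2 fold change 1.60, standard error 0.555, adjusted p = 0.0239 in the same test). The LAMA1 call was lost with DESeq2 (adjusted p = 0.121), with limma on log2(TPM + 1) (log2 fold change 0.16) and without shCon replicate 1, shCon replicate 2 or shUBXN1 replicate 2, where the log2 fold change was 1.72, 1.48 and 1.19, and a long noncoding gene on the other strand shares 10.3% of its exon bases. LAMA4, an α chain of vessels and mesenchyme, was at 95.8 and 91.6 CPM in shCon and 105 and 112 CPM in shUBXN1, a rise of 0.21 on the log2 scale (adjusted p = 0.0264 in the same test). Its call was lost with the GC correction and without shCon replicate 1 (log2 fold change 0.24), shCon replicate 2 (0.16) or shUBXN1 replicate 2 (0.14). LAMC3 had 7 and 6 counts in shCon and 10 and 12 in shUBXN1, and LAMB4 26 and 8 and then 10 and 8, and neither passed the test.

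Of the 13 integrin α subunits tested, 4 rose, 3 fell and 6 did not pass the test, with a median log2 fold change of -0.049, beside 28% higher and 28.2% lower over all genes. Of the 8 β subunits, 6 rose, 1 fell and 1 did not pass, with a median of 1.01. The difference between α and β subunits was not tested. Among the laminin receptors, ITGA3 encodes the α3 integrin subunit that binds the laminins of epithelia. It had 342 and 325 CPM in shCon and 257 and 247 CPM in shUBXN1, 1.32-fold lower (log2 fold change -0.40, standard error 0.0746, adjusted p = 3.46e-04, edgeR quasi-likelihood test, Benjamini-Hochberg). With the GC correction the fall was -0.71 on the log2 scale. ITGA6, whose α6 subunit pairs with β4 in hemidesmosomes or with β1, had 419 and 388 CPM in shCon and 366 and 415 CPM in shUBXN1, with overlapping groups and an adjusted p of 0.649 in the same test. Without shUBXN1 replicate 2 it was called lower (log2 fold change -0.16, adjusted p = 0.0330). ITGA7, for the laminin receptor of muscle, rose from 17.1 and 16.3 CPM to 31.2 and 24.5 CPM (log2 fold change 0.73, standard error 0.120, adjusted p = 1.24e-04 in the same test). With the GC correction the rise of ITGA7 was 0.44.

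ITGB4, the β4 partner of α6, was at 165 and 164 CPM in shCon and at 197 and 192 CPM in shUBXN1 (log2 fold change 0.24, standard error 0.0714, adjusted p = 0.0104, edgeR quasi-likelihood test, Benjamini-Hochberg). This rise did not hold under the GC correction, where the value was -0.16 (adjusted p = 0.124), and the exons of ITGB4 have a GC content of 63.6%. The call was also lost without shCon replicate 1 (log2 fold change 0.24) or shCon replicate 2 (0.22). Per length, the TPM of ITGA6 was 2.58 and 2.40 times that of ITGB4 in shCon and 1.89 and 2.20 times in shUBXN1. ITGB1, the β1 subunit shared by most of the laminin, collagen and fibronectin receptors, had the highest level of all 38 genes, 521 and 483 TPM in shCon and 438 and 435 TPM in shUBXN1. In CPM it went from 967 and 924 to 764 and 817 (log2 fold change -0.26, standard error 0.0819, adjusted p = 0.0150 in the same test). This call was lost with the GC correction (-0.21) and without shCon replicate 1 (-0.22) or shCon replicate 2 (-0.31). Its pseudogene ITGB1P1, a processed copy with which reads may have been divided, had 455 and 424 counts in shCon and 329 and 268 in shUBXN1.

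The genes of the α1 and α2 collagen receptors both fell. ITGA1 had 49.2 and 44.1 CPM in shCon and 28.8 and 34.1 CPM in shUBXN1, 1.49-fold lower (log2 fold change -0.57, standard error 0.0974, adjusted p = 1.81e-04, edgeR quasi-likelihood test, Benjamini-Hochberg). ITGA2 had 73.4 and 65.8 CPM and then 55.0 and 52.9 CPM, 1.29-fold lower (log2 fold change -0.37, standard error 0.0803, adjusted p = 1.30e-03 in the same test), a call lost with limma on log2(TPM + 1) (-0.29, adjusted p = 0.0681). The libraries did not overlap in either gene, which was the case in 78% of all genes tested. ITGA1 and ITGA2 are neighbours on chromosome 5, 30.1 kb apart on the plus strand. PELO and the pseudogene RPL17P21 share 2.69% and 3.08% of the exon bases of ITGA1 on the same strand, and ITGA2-AS1 shares 7.47% on the other. The other collagen-binding subunits did not pass the test. ITGA11 had 267 and 212 counts in shCon and 293 and 269 in shUBXN1, and was called higher with library totals (log2 fold change 0.38). ITGA10 had 102 and 48 counts and then 52 and 28, with a log2 fold change of -0.83 (adjusted p = 0.0735 in the same test) that was called lower with the GC correction (-0.98), with no filter on low counts (-0.84), and without shCon replicate 2 (-1.23) or shUBXN1 replicate 1 (-1.30).

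The αV subunit gene and 3 of its β partners rose. ITGAV encodes the α subunit of the vitronectin and latent TGF-β receptors, and pairs with β1, β3, β5, β6 or β8. It had 367 and 353 CPM in shCon and 706 and 732 CPM in shUBXN1, which is 0.997 on the log2 scale (standard error 0.0778, adjusted p = 1.01e-07, edgeR quasi-likelihood test, Benjamini-Hochberg), just under the 2-fold line and past it with the GC correction (1.05). Both shUBXN1 libraries were thus nearly double the shCon libraries, and ITGAV became the most abundant integrin α gene per length, at 217 and 209 TPM against 106 and 99.1 TPM in shCon. ITGB3, for the β3 subunit of the vitronectin receptor, had 31 and 28 counts in shCon and 272 and 229 in shUBXN1, 8.80-fold higher (log2 fold change 3.14, standard error 0.218, adjusted p = 3.37e-08 in the same test). This was the largest rise by fold of the 33 genes. A readthrough gene that shares 33.2% of the exon bases of ITGB3 had 0 counts in all 4 libraries.

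ITGB6, for the epithelial subunit β6 of a TGF-β activating integrin, had 48 and 40 counts in shCon and 133 and 110 in shUBXN1, 2.87-fold higher (log2 fold change 1.52, standard error 0.255, adjusted p = 1.55e-04, edgeR quasi-likelihood test, Benjamini-Hochberg). ITGB8, for the β8 subunit of the other TGF-β activating integrin, had 108 and 111 counts and then 375 and 316, 3.27-fold higher (log2 fold change 1.71, standard error 0.158, adjusted p = 5.38e-07 in the same test). The groups were well apart in all 3 of these β genes. They stayed low per length: ITGB3, ITGB6 and ITGB8 were on average at 0.399, 0.757 and 0.980 TPM in shCon and at 3.66, 2.27 and 3.35 TPM in shUBXN1. ITGB5, the β5 partner, was at 108 and 109 TPM in shCon and at 105 and 113 TPM in shUBXN1, so that its TPM was 269 and 274 times that of ITGB3 in shCon and 26.3 and 34.3 times in shUBXN1. In CPM, ITGB5 had 236 and 244 and then 216 and 250, with overlapping groups and an adjusted p of 0.697 in the same test. Without shUBXN1 replicate 2 it was called lower (log2 fold change -0.17, adjusted p = 0.0239). The TPM of ITGAV was 0.984 and 0.913 times that of ITGB5 in shCon and 2.06 and 1.85 times in shUBXN1.

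ITGA5, the α5 subunit of the fibronectin receptor, was at 78.8 and 76.5 CPM in shCon and at 70.8 and 69.7 CPM in shUBXN1 and did not pass the test (log2 fold change -0.14, adjusted p = 0.107, edgeR quasi-likelihood test, Benjamini-Hochberg). It was called lower with the GC correction, at -0.37. The other RGD-binding subunits, ITGA8 with 0 counts in all 4 libraries and ITGA2B with 0 to 6 counts, were too low to test. So were ITGA4, with 0 counts in all 4 libraries, and ITGA9, with 6 and 4 counts in shCon and 1 and 0 in shUBXN1, the subunits that bind VCAM1 and tenascin. A count of 0 allows a level of up to 3 counts, or 0.113 to 0.128 CPM depending on the library, from counting error alone.

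The genes of the leukocyte integrins were low, apart from ITGAE, and the one that changed most was the common β2 subunit. ITGB2 had 31 and 30 counts in shCon and 225 and 233 in shUBXN1, 7.79-fold higher (log2 fold change 2.96, standard error 0.224, adjusted p = 7.40e-08, edgeR quasi-likelihood test, Benjamini-Hochberg). Per length it went from 0.835 and 0.880 TPM to 6.89 and 6.99 TPM. Of the α subunits that pair with β2, ITGAX had 49 and 26 counts and then 81 and 67 (log2 fold change 1.05, standard error 0.334, adjusted p = 0.0153 in the same test). Its call was lost without shCon replicate 2 (0.72), and with the GC correction the value was 0.85, under the 2-fold line. ITGAM had 233 and 180 counts and then 155 and 146, and ITGAL 4 and 8 and then 10 and 12, and neither passed the test. ITGAM was called lower with the GC correction, at -0.55 on the log2 scale. ITGAD had 2 counts in 1 shCon library and 0 elsewhere.

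Of the 8 leukocyte markers checked, 3 were at 0 in all libraries, none had 10 counts in every library, and PTPRC, the gene of the common leukocyte antigen CD45, had 0 to 4 counts. Their summed level was 0.585 to 0.945 TPM in shCon and 2.35 to 2.54 TPM in shUBXN1, nearly all of the latter from CD53. In bulk RNA, fewer cells of a type and less RNA per cell cannot be told apart. The 8 endothelial markers summed to 15.3 to 15.5 TPM and then 32.1 to 32.3 TPM, almost all from PECAM1 and KDR, while EMCN was at 0 and CDH5 had 0 to 6 counts. The 9 fibroblast markers summed to 24.8 to 25.2 TPM and then 13.1 to 13.9 TPM, mostly from LUM, with PDGFRA at 0. COL1A1 went the other way, from 10 and 4 counts to 58 and 59, and ACTA2 and PDGFRB had 0 to 3 counts in shCon and 3 to 7 in shUBXN1. Their part in the changes of the integrin and laminin genes was not tested.

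The αE and β7 subunits form the receptor by which lymphocytes within an epithelium hold on to E-cadherin. ITGAE, for the αE subunit, was at 16.5 and 16.3 CPM in shCon and at 18.8 and 22.0 CPM in shUBXN1 (log2 fold change 0.31, standard error 0.113, adjusted p = 0.0297, edgeR quasi-likelihood test, Benjamini-Hochberg). That call was lost with DESeq2, with the GC correction (0.15) and without shCon replicate 1 (0.32), shCon replicate 2 (0.29) or shUBXN1 replicate 2 (0.18). ITGB7 was at 6.23 and 5.36 CPM and then at 8.93 and 7.52 CPM (log2 fold change 0.50, standard error 0.176, adjusted p = 0.0248 in the same test). Its call was lost with DESeq2, with limma on log2(TPM + 1) (0.47), with the GC correction (0.24) and without shCon replicate 2 (0.39) or shUBXN1 replicate 1 (0.37). ZNF740, on the other strand, shares 42.3% of the exon bases of ITGB7, and whether reads were counted by strand is not given in the sources used here.

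The genes that act with integrins and laminins were taken from 4 lists. Among 31 integrin activators and adhesion adaptors, 11 of the 30 tested rose, 11 fell and 8 did not pass the test. Their median log2 fold change was 0.056, beside 28% higher, 28.2% lower and a median of 0.016 over all genes tested. TLN2, a talin that switches integrins on from inside the cell, had 4.24 and 4.30 CPM in shCon and 19.4 and 18.7 CPM in shUBXN1 (log2 fold change 2.15). The more abundant talin gene TLN1 fell from 376 and 377 CPM to 281 and 296 CPM (-0.38). TGFB1I1, the adaptor Hic-5, had 86 and 62 and then 292 and 242 counts (1.91). FERMT1, the epithelial kindlin, fell from 1117 and 1060 counts to 512 and 565 (-0.96), and TNS2, a tensin, from 611 and 440 to 309 and 234 (-0.89). Of the other FERMT genes, FERMT2 rose (0.62) and FERMT3 fell (-0.42). TNS4, another tensin, was singled out after its values were seen: it had 100 and 124 counts in shCon and 1 and 0 in shUBXN1, a ratio of 215 with a 95% counting interval of 38.2 to 8530.

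Among 17 basement membrane partners of laminins, 10 could be tested, of which 5 rose, 3 fell and 2 did not pass. Their median was 0.24, beside 28% higher, 28.2% lower and a median of 0.016 over all genes tested. COL4A2, a collagen IV chain, rose by 1.16 on the log2 scale, from 80 and 78 counts to 175 and 165, and its partner chain COL4A1 had 0 to 5 counts. BCAM, a surface receptor for the laminin α5 chain, rose from 17.3 and 17.6 CPM to 32.0 and 33.0 CPM (log2 fold change 0.90). DAG1, for the laminin receptor dystroglycan, fell from 337 and 339 CPM to 234 and 259 CPM (-0.45), and AGRN, for agrin, from 283 and 273 CPM to 232 and 234 CPM (-0.25).

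Among 25 other integrin ligands, 11 of the 22 tested rose, 6 fell and 5 did not pass. Their median was 0.39, beside 28% higher, 28.2% lower and a median of 0.016 over all genes tested. VCAM1, which leukocyte integrins bind, rose from 77 and 63 counts to 630 and 541 (log2 fold change 3.12), and ICAM2, a ligand of the β2 integrins, from 116 and 117 to 334 and 295 (1.49). TNC, for tenascin C, fell from 808 and 679 counts to 36 and 35 (-4.32), and FGB, for the fibrinogen β chain, from 259 and 234 to 20 and 9 (-4.02). Of the ligands of αV, chosen here after their values were seen, VTN, for vitronectin, had 3 and 9 counts and then 57 and 62, and FN1, for fibronectin, fell by 0.41 on the log2 scale. Other abundant genes of the list rose. SPP1 went from 1457 and 1468 TPM to 1983 and 1975 TPM (log2 fold change 0.38), and FBN1 changed by 0.97. THBS1 did not pass the test.

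Among 13 membrane and hemidesmosome partners of integrins, 8 rose, 3 fell and 2 did not pass. With DESeq2 5 fell, beside 4109 of 16863 genes tested. The median of the 13 partners was 0.37, beside 28% higher, 28.2% lower and a median of 0.016 over all genes tested. CD82, a tetraspanin, rose from 45 and 57 counts to 174 and 163 (log2 fold change 1.77), and CD47, an integrin-associated receptor of thrombospondin, from 49.6 and 48.6 CPM to 93.1 and 94.1 CPM (0.93). COL17A1, a transmembrane collagen of hemidesmosomes, fell from 21.5 and 22.8 CPM to 16.0 and 12.2 CPM (-0.64), and CD151, a tetraspanin that holds to the laminin-binding integrins, from 281 and 283 CPM to 184 and 197 CPM (-0.57). Adjusted p-values of the genes named from the 4 lists (edgeR quasi-likelihood test, Benjamini-Hochberg) ran up to 8.39e-03 (AGRN).

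**Figure D4:**
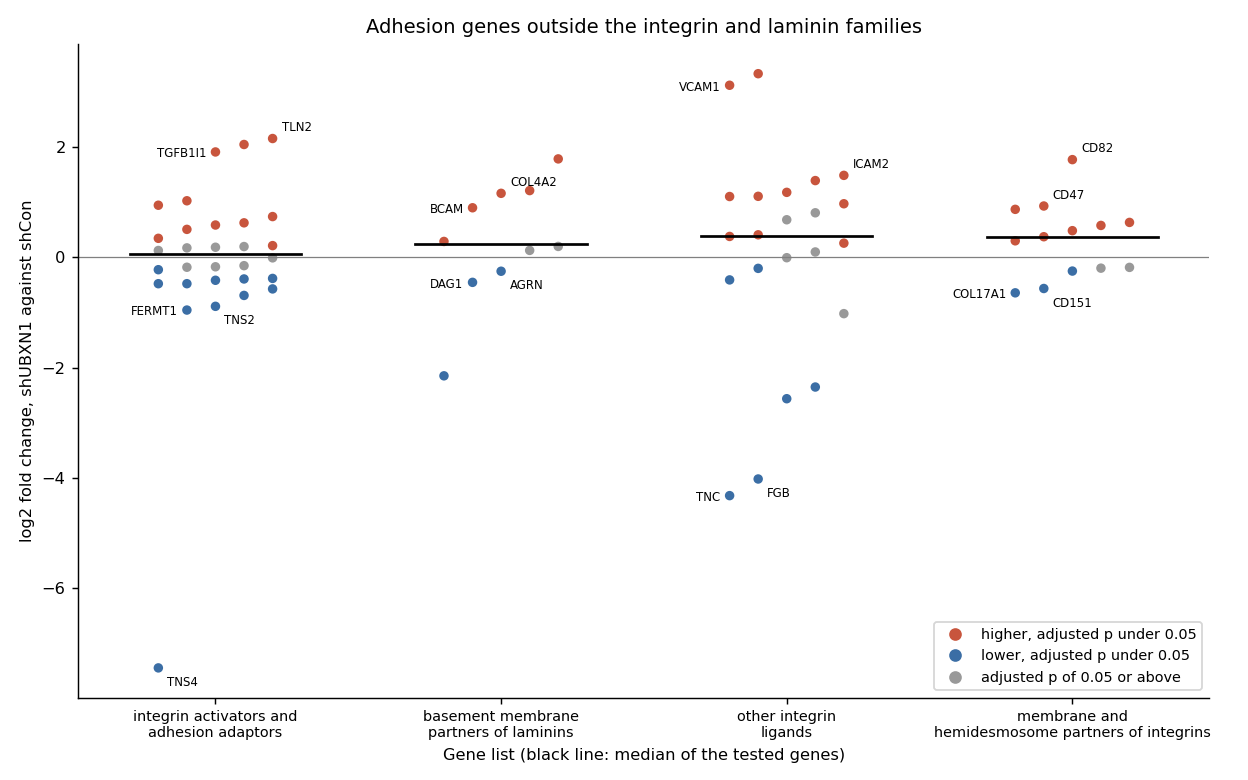
Log2 fold change of shUBXN1 against shCon for each tested gene of the 4 lists of adhesion genes, coloured by the adjusted p, with the median of each list as a black line. The medians lie between 0.056 and 0.39, and TNS4, TNC and FGB lie lowest.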

How the data were processed

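RNA of 2 shCon and 2 shUBXN1 libraries of MHCC97H cells had been sequenced. The authors deposited a table of unnormalized expected counts by gene, with a gene length. The submitters' processing notes name GRCh37, HISAT2 2.0.4 and StringTie 1.3.0, and the study's methods name GRCh38, Hisat2, TPM and limma. The counting tool and the annotation release are not given in the sources used here.

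Here the expected counts were rounded, filtered with filterByExpr, scaled with TMM and tested two-sided with glmQLFit and glmQLFTest in edgeR 4.0.16 (R 4.3.3), over all 16863 genes kept, with Benjamini-Hochberg adjustment over them. The standard error is the log2 fold change over the square root of F. TPM was computed from the deposited counts and lengths. Of the gene IDs, 99.72% matched GENCODE 44 (GRCh38), the source of coordinates, symbols, overlaps and GC content. Alternatives were DESeq2 1.42.0, limma 3.58.1 (voom, and log2(TPM + 1)), other scalings and filters, unrounded counts, a replicate block, a loess GC correction, other thresholds and leaving out each library. The tests were run on simulated counts with the same dispersion for every gene and few changed genes. That setting differs from these data, in which 56.2% of the genes tested were called.

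Besides the members, of which 1 is in the counts and tests but is not reported by itself, the genes named are UBXN1 and, from each list, the 2 largest rises and 2 largest falls with an adjusted p under 0.05 and a mean log2 CPM above 2. TNS4, TLN1, FERMT2, FERMT3, VTN, FN1, SPP1, FBN1, THBS1 and COL4A1 fall outside this rule and were chosen after their values were seen. Marker genes are named from the marker lists. The members and lists were chosen with earlier results of these data known. With 2 libraries per group, 2 residual degrees of freedom limit the precision, and counting intervals cover counting error only.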

Additional observations from a re-analysis of the deposited data

How the results depend on the processing

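Over 14 alternative tests, scalings, filters and left-out libraries, 16 of the 24 called integrin and laminin genes kept their direction and their call in each, 12 of them higher and 4 lower. With each library left out, fewer genes were called higher at the adjusted p, among these genes and over all genes tested. At a fold change of 1.5, 2 genes were lower, ITGA10 being the second. At an adjusted p under 0.01, 12 were higher and 5 lower. The share over all genes was not counted at these thresholds. On log2(TPM + 1), which understates changes of low genes, 7 were higher at 2-fold, with ITGB3 at 1.73 and LAMA2 at 0.37. Over all 16863 genes that scale gave 1028 higher and 524 lower at 2-fold, against 1997 and 1027 in the main test. Over all genes, 66.0% of the 2-fold calls were higher, and 54.9% with the GC correction. Scaling by library totals moved the median of all genes from 0.016 to 0.101.

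Values that changed sign were those of ITGA6 (0.034 with library totals, 0.0087 on log2(TPM + 1), -0.16 to 0.036 with a library left out), ITGB5 (0.041, 0.014, and -0.17 to 0.059), ITGB4 (-0.16 with the GC correction) and LAMB4 (-1.39 to 0.13 with a library left out). The membrane and hemidesmosome partners that fell numbered 5 with DESeq2 or without a filter, beside 4109 of 16863 and 4879 of 30333 genes tested. Their number varied with a library left out. The other integrin ligands that fell numbered 3 with at least 10 counts required in every library, where fewer genes were tested. Over all genes 4446 of 14974 then fell. The cause of the other changes was not tested. UBXN1 ran from -2.32 to -1.93.

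Same-numbered libraries deviated together with a correlation of 0.0336, so no strong shared shift was seen. This value rests on 1 difference per group and cannot settle whether the libraries were paired. With the replicate block 18 integrin and laminin genes were higher and 8 lower, and 10 and 1 at 2-fold, beside 5000 higher and 5023 lower at the adjusted p among all 16863 genes. The 2 added lower genes were ITGA10 (-0.82) and ITGAM (-0.39).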
